A study of Homo sapiens with 16 samples.

Results

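The genes described here are the 280 human genes whose symbol is ZNF followed by digits and whose mean raw count over the 16 libraries was at least 200. They were taken from 528 such ZNF genes among the 23228 genes counted. The other 248 ZNF genes had lower mean counts. The members were chosen by their symbol and by their measured mean count over all libraries, so that mean is a description and carries no test. Member means ran from 200.5 to 5685.5 counts with a median of 458.16, and the lowest count of any member in any library was 46. Just inside the threshold stood ZNF181, ZNF362 and ZNF14 with mean counts of 200.5, 201.06 and 201.19, and just outside it ZNF43, ZNF10 and ZNF213 with 197.81, 197.31 and 196.88. All 280 members passed the filter on low counts.

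RNA was sequenced from cells of the line MDA-MB-231, which derives from a human breast carcinoma, has a mesenchymal character and lacks hormone receptors, and which was grown in DMEM with 10% serum. Cells were given MMS (methyl methanesulfonate, an alkylating agent that methylates DNA bases), sorafenib (an inhibitor of RAF and receptor tyrosine kinases), or both, and RNA was taken after 8 h or 24 h. In the combination, 1 µM sorafenib was present for 12 h before MMS was added and the hours are counted from MMS. The 8 groups were combination, MMS, sorafenib and the vehicle DMSO, each at 8 h and at 24 h, with 2 libraries per group, and the series text gives the treatments in a pair of independent experiments. Which library belongs to which experiment is inferred here from the 2 ways in which the sample titles begin, since no label states it. Sorafenib alone was also 1 µM, and no pre-incubation is given for it. The MMS dose is 40 in both sources, but its unit is µg/mL in the series text and µM in the sample labels. All groups are 1 cell line in culture.

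Most ZNF proteins carry C2H2 zinc fingers, short zinc-binding folds that usually read DNA and in some members bind RNA or protein. Many also carry a KRAB box, a domain that recruits the corepressor TRIM28 (KAP1) and through it the histone H3 lysine 9 methyltransferase SETDB1, and these KRAB proteins are best known for silencing transposable elements. Many KRAB genes lie in tandem clusters on chromosome 19. Members without KRAB are a mixed group of activators, repressors, RNA-binding factors and proteins of genome maintenance.

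Of the 273 members with a coding sequence in GENCODE, a profile search found a KRAB box in 160 and none in 113. Any box that the search missed counts as absent here, so the members without KRAB may include genes with a box. KRAB members had a median of 12 fingers (range 0 to 32), and 97 of them lie on chromosome 19. Members without KRAB had a median of 7 fingers (range 0 to 34), and 20 lie on chromosome 19. Membership follows the symbol and the mean count, so genes with 0 fingers found are included. The median mean count, not divided by gene length, was 379 for KRAB members and 632 for members without KRAB. Of the 275 members with a known position, 117 lie on chromosome 19 and 162 have another ZNF gene as a direct neighbour. Several deposited symbols are older names. ZNF238 is now ZBTB18, ZNF295 is ZBTB21, ZNF259 is ZPR1 and ZNF643 is ZFP69B.

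Sequences around transcription starts are shown first because the members that moved most at 8 h include a head-to-head gene pair and because one short motif was frequent in the family. Promoter windows, 250 bases before to 50 after each start, were taken from RefSeq on GRCh38.p14 and matched for 239 members. The motif CCGGAAG, the core bound by ETS family factors, was searched on both strands (as CCGGAAG or CTTCCGG). It stood in 41.4% of member windows, against 10.7% of all 27305 windows and 20.9% of windows of other genes that reach a mean of 200 counts. Capitals below mark it. The first line is the whole 40-base stretch between the starts of ZNF829 (minus strand) and ZNF568 (plus strand), at chr19:36916292-36916331, read on the plus strand. The others are the 150 bases before the start, in the direction of transcription: ZNF419, which rose, at chr19:57487600-57487749 (plus strand), and ZNF608 and ZNF238, the members with the largest falls, at chr5:124748825-124748974 (minus strand) and chr1:244048503-244048652 (plus strand).
ZNF829_ZNF568: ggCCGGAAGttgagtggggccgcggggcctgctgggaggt
ZNF419: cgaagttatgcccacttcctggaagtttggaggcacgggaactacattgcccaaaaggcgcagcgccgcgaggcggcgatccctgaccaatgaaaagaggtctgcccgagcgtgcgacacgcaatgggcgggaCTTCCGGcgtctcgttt
ZNF608: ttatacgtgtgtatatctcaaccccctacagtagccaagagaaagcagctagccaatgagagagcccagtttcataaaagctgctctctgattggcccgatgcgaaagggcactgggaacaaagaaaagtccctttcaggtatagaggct
ZNF238: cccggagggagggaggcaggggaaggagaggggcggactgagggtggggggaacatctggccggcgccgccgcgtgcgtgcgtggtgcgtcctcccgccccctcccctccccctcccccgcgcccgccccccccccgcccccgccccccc

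The windows printed do not stand for the direction of change. ZNF844, ZNF136, ZNF295, ZNF841 and ZNF470, also among the largest rises at 8 h, had no copy in the 150 bases before the start. The motif's share was counted by direction of change. It stood in 53 of 135 members that rose with MMS at 8 h (39.3%), in 44 of 95 that passed no threshold (46.3%) and in 2 of 9 that fell (22.2%). It was present in 45.0% of KRAB windows and in 36.1% of windows without KRAB. CCAAT, the NF-Y core, was in 52.9% of KRAB windows, in 32% of windows without KRAB and in 44.4% of all member windows. It was in 37.2% of windows of the other genes and in 35.7% of all windows. In all, 18 motifs were counted.

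Facts of the whole series bear on these values as follows. Libraries held 16774156 to 26448212 reads in genes, with a median of 20348720. In CPM, the reads of a gene per 1000000 reads in genes of that library, the line's mesenchymal genes were high in every library, with VIM at 1479 to 2476 CPM and CD44 at 608 to 1174 CPM, and so were EGFR, AXL, CAV1 and MSN, each above 230 CPM throughout. Of 6 genes set down as near 0 in this line, the hormone receptor genes ESR1 and PGR reached at most 0.224 and 0.674 CPM and the leukocyte genes PTPRC and CD79A at most 1.36 and 0.170 CPM. The other two were not near 0 throughout. GATA3, a luminal gene, stood at 4.65 to 10.7 CPM in every library, and the epithelial gene CDH1 ran from 0.241 to 9.34 CPM with a median of 1.18 CPM. Reads aligning to several places made up 29.5 to 31.5% of all entries counted per library. How they were treated for paralogs, and the strand setting, are not given in the sources used here, so values of near-identical or overlapping ZNF genes are uncertain. Fewer cells and less RNA per cell cannot be told apart in bulk RNA.

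ZNF genes were higher as a group in MMS cells at 8 h. Summed over all 280 members, the level was 10867 and 10769 CPM in MMS cells, against 7951 and 8540 CPM in DMSO cells. Both MMS libraries lay above both DMSO libraries. With edgeR's quasi-likelihood test and a Benjamini-Hochberg adjusted p under 0.05 over all 13948 genes tested, 155 members rose (55.4%) and 17 fell (6.07%). Among all genes tested 14.5% rose and 12.0% fell, and among the 8704 other genes with a mean count of at least 200 the shares were 17.3% and 14.3%. The median log2 fold change was 0.47 in the members and 0.00 in the other genes of similar level. In fits with 1 library left out the member median ran from 0.43 to 0.52. Each such fit called fewer rises and fewer falls than the full fit. Both MMS libraries were above both DMSO libraries for 198 single members and below them for 35, against 28.6% and 33.4% of all genes tested. Within each experiment as inferred from the titles, on a log2(CPM + 0.5) scale, the median change was 0.51 in the first and 0.38 in the second.

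**Figure D1:**
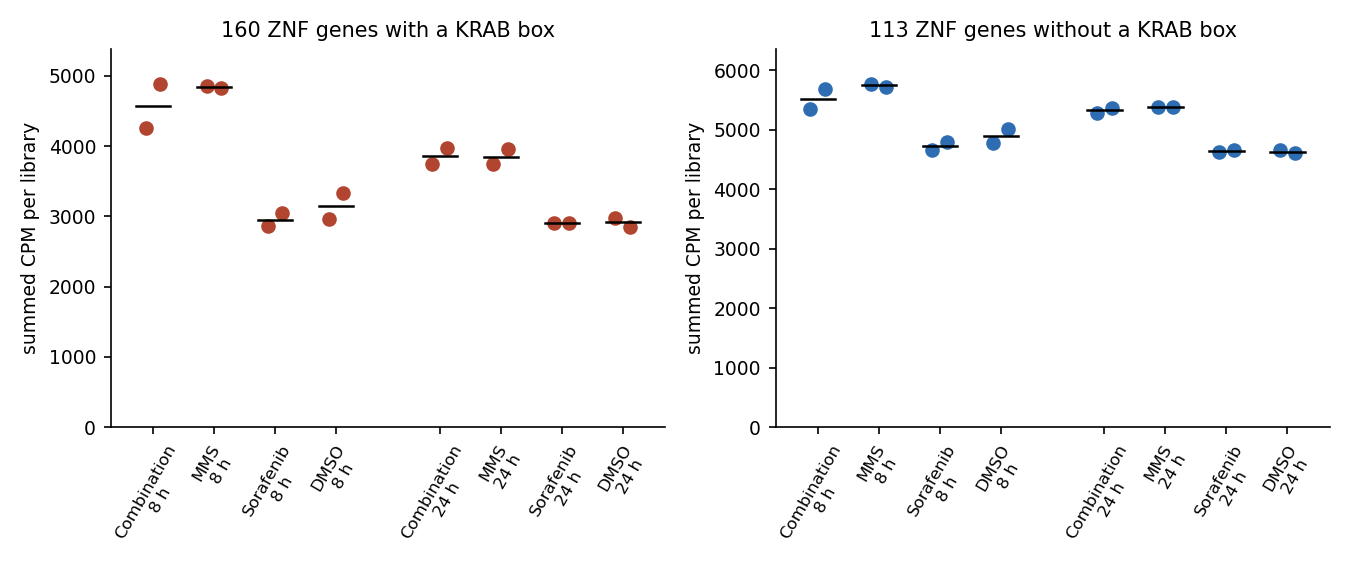
Summed level in CPM (vertical axis, from 0) of the 160 KRAB members (left panel) and the 113 members without KRAB (right panel) in each library, by group and time, with a point per library and a line at the mean of 2. In both panels the MMS and combination libraries lie above the DMSO and sorafenib libraries of the same time.

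Of the 155 rises at 8 h 108 were in KRAB genes. The summed level of the KRAB members was 4853 and 4826 CPM in MMS cells, against 2966 and 3330 CPM in DMSO cells. These 108 of 160 KRAB members stand beside 2 that fell, with a median log2 fold change of 0.68. Of the 113 members without KRAB 45 rose and 14 fell, with a median of 0.24, and their summed level was 5778 and 5717 CPM in MMS cells, against 4786 and 5008 CPM in DMSO cells. Neither set's groups overlapped in the summed level. The 7 unclassified members gave 2 rises and 1 fall. The difference between members with and without KRAB was not tested.

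**Figure D2:**
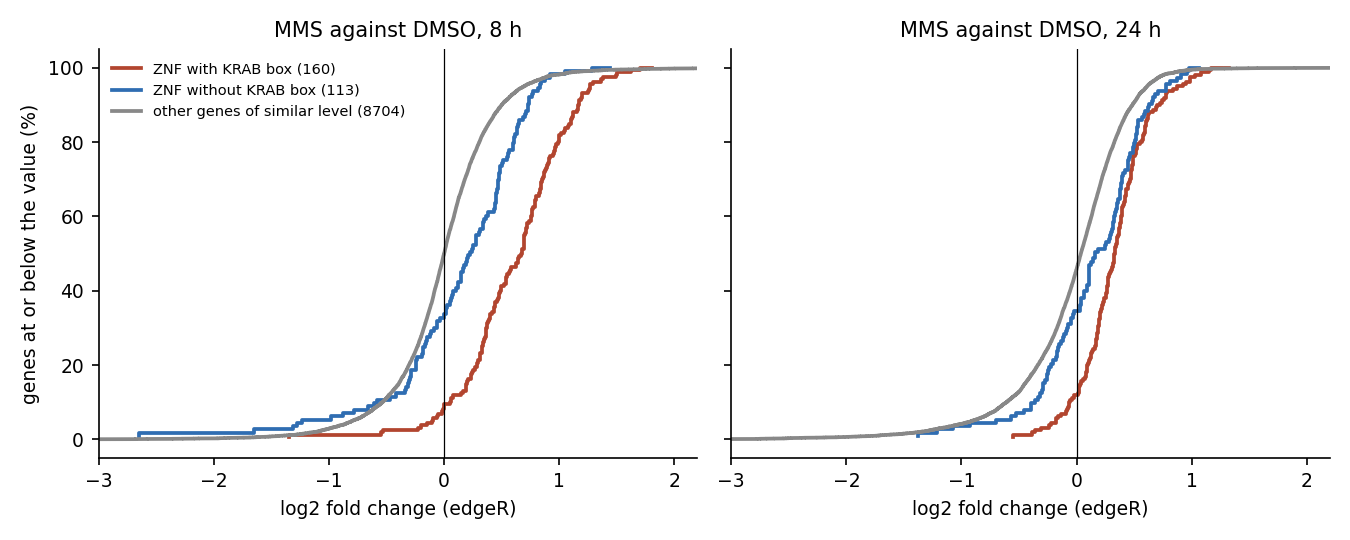
Cumulative share of genes (vertical axis, %) at or below each log2 fold change (horizontal axis) for MMS against DMSO at 8 h (left) and 24 h (right), in KRAB members, members without KRAB and other genes of similar level. At 8 h the KRAB curve lies furthest right, with a median of 0.68, and the curve of the other genes crosses its median at 0.00; changes beyond the axis ends are not drawn.

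Position and level were described alongside. On chromosome 19, 80 of 117 members rose, among them 71 of 97 KRAB members with a median log2 fold change of 0.76. Off chromosome 19, 37 of 63 KRAB members rose, with a median of 0.53. Of members with a ZNF gene on both sides 62 of 83 rose and none fell in this test. Of those with 1 such neighbour 42 of 79 rose, and of those with none 50 of 113 rose. These properties overlap with each other and with KRAB, and their separate parts were not tested. By level, 48.3% of members and 11.2% of other genes rose at a mean count of 200 to 400. From 1600 counts up, 50% of members and 19% of other genes rose.

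The members with the largest rises at 8 h included ZNF568 and ZNF829, the neighbours whose shared start region is printed above. Genes named by size of change, here and below, were taken only where the groups did not overlap. Their separation therefore follows from the choice and is no further support. ZNF568, a KRAB gene whose mouse counterpart silences a placental transcript of Igf2, stood at 19.3 and 19.4 CPM in MMS cells, against 5.07 and 6.24 CPM in DMSO cells (log2 fold change 1.81 ± 0.17 SE, adjusted p = 2.08e-05). ZNF829 stood at 30.9 and 30.3 CPM in MMS cells, against 9.12 and 10.2 CPM in DMSO cells (1.70 ± 0.11, adjusted p = 1.78e-06). In both genes the groups lay far apart, with a fitted 3.50-fold and 3.25-fold difference. There were 4 such head-to-head pairs with starts within 1000 bases among the members, and in 2 of them both genes rose. In ZNF434 and ZNF174, whose starts lie 210 bases apart, ZNF434 rose (0.73, adjusted p = 0.00182) and ZNF174 fell (-0.42, adjusted p = 0.0428), a call lost without either DMSO 8 h library or the second MMS 8 h library (adjusted p up to 0.246), with DESeq2, with no filter and with only these groups in the fit. Neither ZNF668 nor ZNF646, the remaining pair, passed the threshold.

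Other KRAB genes of chromosome 19 followed. ZNF844 stood at 28.1 and 33.0 CPM in MMS cells, against 9.66 and 10.7 CPM in DMSO cells (1.62 ± 0.21, adjusted p = 0.000135). ZNF136 was at 23.7 and 21.5 CPM in MMS cells and at 7.87 and 8.48 CPM in DMSO cells (a fitted 2.84-fold difference, adjusted p = 2.02e-05). ZNF419 was at 22.0 and 19.5 CPM in MMS cells and at 7.39 and 7.77 CPM in DMSO cells (1.49 ± 0.14, adjusted p = 2.00e-05). In these 3 genes every MMS library was more than double every DMSO library. ZNF470 rose by a log2 fold change of 1.37 (adjusted p = 6.66e-05). ZNF841 rose by 1.38 (adjusted p = 0.00441), at 55.1 and 71.4 CPM in MMS cells, against 18.7 and 31.0 CPM in DMSO cells. The second replicate was the higher one in both groups, and the call was lost without the first DMSO 8 h library (adjusted p = 0.0523). ZNF295 (ZBTB21), a BTB domain regulator without KRAB on chromosome 21, was among the largest rises as well, at 100.1 and 94.1 CPM in MMS cells, against 34.3 and 39.0 CPM in DMSO cells (1.44 ± 0.10, adjusted p = 2.82e-06).

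Of the 17 falls at 8 h 14 were in genes without KRAB. ZNF608, whose mouse counterpart represses the Rag recombinase genes in thymocytes, stood at 1.74 and 2.74 CPM in MMS cells, against 17.7 and 11 CPM in DMSO cells (log2 fold change -2.65 ± 0.34, adjusted p = 0.000156). ZNF238 (ZBTB18), a repressor needed for neuronal differentiation, stood at 27.5 and 29.5 CPM in MMS cells, against 89.5 and 93.4 CPM in DMSO cells (-1.65 ± 0.09, adjusted p = 9.56e-07). In both genes each MMS library lay far below each DMSO library. ZNF521, a cofactor of early blood and neural progenitors, was at 13.5 and 10.5 CPM in MMS cells and at 34.5 and 25.1 CPM in DMSO cells (-1.27, adjusted p = 0.00224). ZNF362 fell by 1.31, ZNF618, a partner of UHRF2, by 1.23, and ZNF792, one of the 2 KRAB members that fell, by 1.35 on the log2 scale. ZNF488, a factor of oligodendrocyte development in the mouse, was at 5.41 and 3.95 CPM in MMS cells and at 11 and 8.11 CPM in DMSO cells (-0.98, adjusted p = 0.027). ZNF827, which recruits the NuRD complex to telomeres, had a log2 fold change of -0.88 (adjusted p = 0.0128). The calls of ZNF488 and ZNF827 were each lost without either of 2 libraries, with adjusted p up to 0.183 for ZNF488 (without the first DMSO 8 h library or the second MMS 8 h library) and up to 0.116 for ZNF827 (without the first MMS 8 h library or the second DMSO 8 h library).

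At 24 h the family was also higher in MMS cells, with a smaller median change. The summed level was 9387 and 9607 CPM in MMS cells, against 7831 and 7641 CPM in DMSO cells. There were 111 rises (39.6%) and 12 falls (4.29%), against 15.2% and 16.3% of all genes tested and 19.8% and 17.1% of other genes of similar level. The median log2 fold change was 0.32, against 0.04 in other genes of similar level. By experiment the median was 0.26 in the first and 0.39 in the second, where 8 h had given 0.51 and 0.38. A smaller median at 24 h was thus seen in the first experiment only. KRAB members gave 63 rises and 1 fall with a median of 0.33, and members without KRAB gave 44 rises and 11 falls with a median of 0.19. Without the first MMS 24 h library the counts were 65 rises and 5 falls, without the second DMSO 24 h library there were 7 falls, and with only these groups in the fit there were 56 and 7. With replicates paired by experiment there were 142 rises and 22 falls, where 29% and 25.2% of other genes of similar level were called.

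Of the 8 largest rises at 24 h 5 were in genes that had risen at 8 h. ZNF699 stood at 35.3 and 28.1 CPM in MMS cells, against 14.7 and 9.65 CPM in DMSO cells (1.33 ± 0.22, adjusted p = 0.000876). ZNF441 stood at 21.7 and 23 CPM in MMS cells, against 9.22 and 9.94 CPM in DMSO cells (1.17 ± 0.16, adjusted p = 0.000332). The groups were apart in both genes, and the log2 fold changes at 8 h had been 1.00 and 1.17. ZNF583 rose by 1.15, ZNF530 by 0.99 and ZNF473, a component of the U7 machinery that processes histone pre-mRNA, by 1.03, at 62.4 and 58.6 CPM in MMS cells and 30.0 and 27.3 CPM in DMSO cells. ZNF324B and ZNF593 passed the threshold at 24 h and not at 8 h. ZNF324B had 16.5 and 18.4 CPM in MMS cells and 7.32 and 8.63 CPM in DMSO cells at 24 h (a fitted 2.11-fold difference, adjusted p = 0.000737). ZNF593, whose yeast counterpart acts in export of the large ribosomal subunit, had 47.6 and 42.2 CPM in MMS cells and 17.3 and 24.1 CPM in DMSO cells (1.06, adjusted p = 0.000878), and the difference of its effect from that at 8 h did not pass (0.78, adjusted p = 0.0667). ZNF542, a pseudogene in current annotation, had the largest fitted rise (1.64 ± 0.58, adjusted p = 0.0495) at 16.7 and 26.2 CPM in MMS cells and 4.58 and 8.63 CPM in DMSO cells. Its call was lost whichever of the 4 libraries was left out, with adjusted p up to 0.235, and its adjusted p was 3.24e-08 with replicates paired by experiment.

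The falls at 24 h were led by ZNF608, described below, and by genes without KRAB. ZNF704 stood at 8.75 and 7.98 CPM in MMS cells, against 18.9 and 18.5 CPM in DMSO cells (-1.22 ± 0.18, adjusted p = 0.000489). ZNF362 stood at 6.26 and 7.46 CPM in MMS cells, against 13.1 and 14.8 CPM in DMSO cells (-1.07 ± 0.14, adjusted p = 0.000232). ZNF395, a factor induced by hypoxia, stood at 45.5 and 47.9 CPM in MMS cells, against 83.6 and 87.5 CPM in DMSO cells (-0.93 ± 0.07, adjusted p = 1.32e-05). These 3 genes had no overlap between groups at either time. ZNF76, a relative of the promoter factor ZNF143, had a log2 fold change of -0.53 (adjusted p = 0.00159). ZNF608 had -1.38 (adjusted p = 0.00553) and ZNF618 had -0.70 (adjusted p = 0.0116), and both calls were lost without the first MMS 24 h library, with adjusted p of 0.0569 for ZNF608 and up to 0.12 for ZNF618, which was also lost without the second DMSO 24 h library. ZNF25, the 1 KRAB member that fell at 24 h (-0.55, adjusted p = 0.0124), was lost without the same 2 libraries, with adjusted p up to 0.109. ZNF358 (-0.46, adjusted p = 0.0447) was lost without any of 3 of the 4 libraries, with adjusted p up to 0.519, the exception being the first DMSO 24 h library. With only these groups in the fit ZNF25 (adjusted p = 0.0935) and ZNF358 (0.144) were lost too, and ZNF358 also without scaling factors (0.0817).

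**Figure D3:**
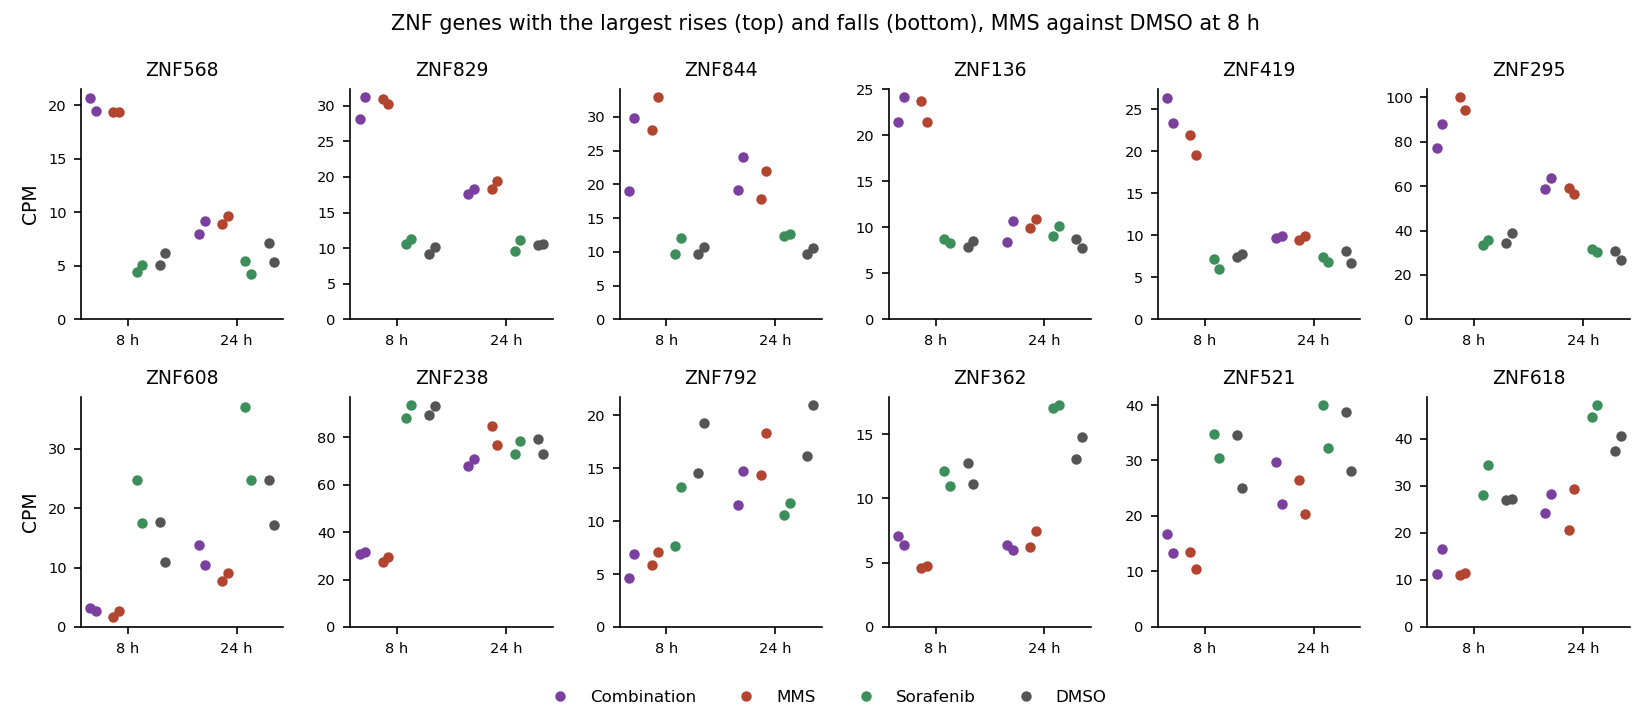
Level in CPM (vertical axes, from 0, with a scale per gene) in every library of the 6 members with the largest rises (top) and the 6 with the largest falls (bottom) for MMS against DMSO at 8 h, each point 1 library, by group and time. ZNF568 and ZNF829 stand higher in MMS and combination libraries at 8 h than in DMSO and sorafenib libraries, and ZNF608 and ZNF238 lower.

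The MMS effect itself was compared between the times. The effect at 24 h was below that at 8 h for 29 members (10.4%) and above it for 10 (3.57%), against 5.60% and 3.53% of all genes tested and 6.48% and 4.96% of other genes of similar level. The median difference was -0.18 in the members and 0.01 in other genes of similar level. Of the 29 members 23 carry KRAB, 28 had risen at 8 h and 5 also rose at 24 h. The 8 h effect is subtracted in this difference, so a rise at 8 h favours a call below. Neither the 28 nor the family's larger share below is separate from its rises at 8 h. The differences had the same sign in both experiments for all 29 and all 10. These members were picked by a test on the same libraries, which favours that outcome, so it is no separate support. The median over all members was -0.19 in the first experiment and 0.00 in the second. Without scaling factors the counts were 27 below and 15 above with a median of -0.08, and with replicates paired they were 74 below and 28 above, where 15.3% and 14.6% of other genes of similar level were called. Leaving out 1 library gave 12 to 25 below and 3 to 7 above, with 12 below without the first DMSO 8 h library, 13 below without the first MMS 24 h library and 3 above without the second MMS 8 h library. The count below was under 20 without each of the MMS libraries and without either first DMSO library, and the count above was under 7 without any MMS library or either DMSO 8 h library.

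**Figure D4:**
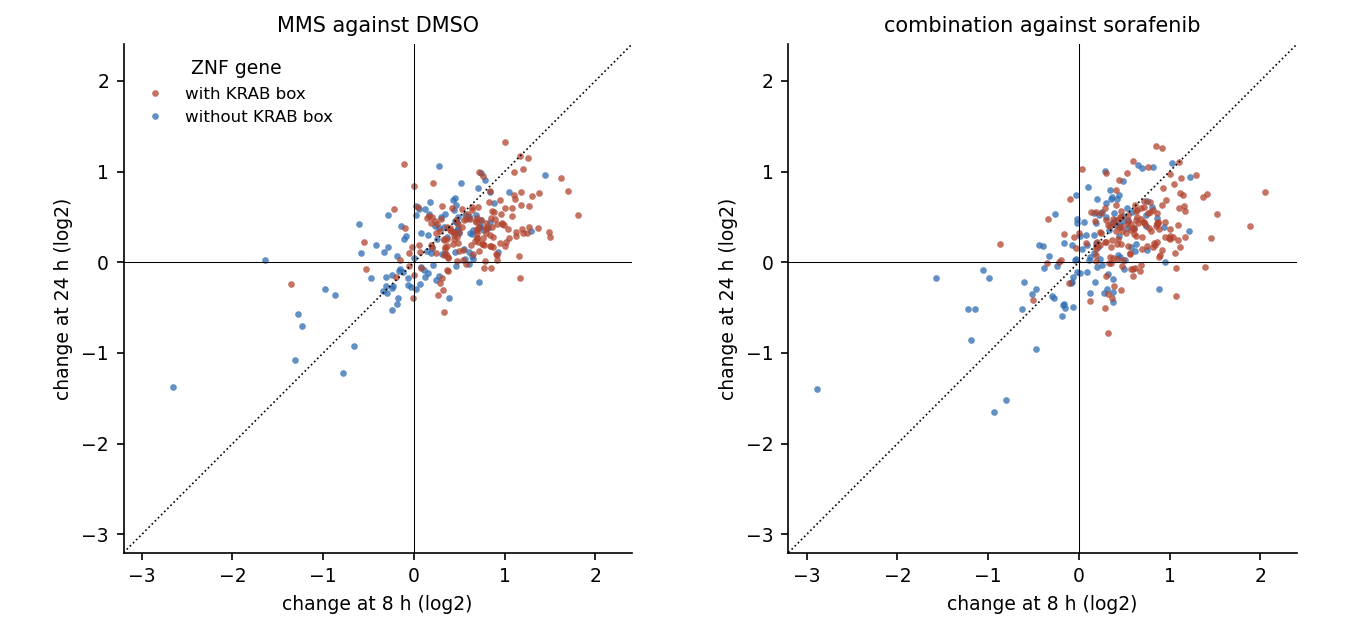
Log2 fold change at 8 h (horizontal axis) and at 24 h (vertical axis) for MMS against DMSO (left) and combination against sorafenib (right), each point 1 ZNF member, coloured by KRAB, with a dotted line of equal change. In the left panel most points lie right of 0, and the median difference of 24 h minus 8 h is -0.18.

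ZNF160 and ZNF136 are KRAB genes whose rise passed the threshold at 8 h and not at 24 h. ZNF160 stood at 36.9 and 38.6 CPM in MMS cells, against 16.2 and 18.3 CPM in DMSO cells, at 8 h, and at 18.3 and 20.7 CPM in MMS cells, against 20.2 and 22.1 CPM in DMSO cells, at 24 h. The groups were apart at 8 h and overlapped at 24 h (difference of effects -1.34 ± 0.18, adjusted p = 0.00109). ZNF136 differed by -1.22 (adjusted p = 0.00405) and ZNF829 by -0.91 (adjusted p = 0.00472). The log2 fold change of ZNF136 at 24 h was still above 0 (0.28, adjusted p = 0.165). ZNF829 also rose past the threshold at 24 h (0.79, adjusted p = 0.00037). ZNF207 (BuGZ), a microtubule-binding protein of the mitotic spindle, was the 1 member that rose in some comparisons and fell in others. It had 225 and 208 CPM in MMS cells and 173 and 168 CPM in DMSO cells at 8 h, and 117 and 122 CPM in MMS cells and 158 and 144 CPM in DMSO cells at 24 h (difference -0.78, adjusted p = 0.00158). Both MMS libraries lie above DMSO at 8 h and below it at 24 h. ZNF238 moved the other way. At 24 h it had 84.7 and 76.7 CPM in MMS cells and 79.5 and 73.2 CPM in DMSO cells, groups that overlapped, and its effect differed from that at 8 h by 1.67 ± 0.12 (adjusted p = 2.68e-05). ZNF324B differed by 1.18 (adjusted p = 0.0109) and ZNF702P by 1.07 (adjusted p = 0.0146). ZNF718 differed by 0.81 (adjusted p = 0.0232), and that call was lost without 6 of the 8 libraries, the exceptions being the first DMSO libraries of both times, with adjusted p up to 0.0851, and with only these groups in the fit (adjusted p = 0.0816).

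The effect of MMS was also read in cells that had received sorafenib first, as combination against sorafenib. Sorafenib cells had no stated 12 h of pre-incubation, so that these groups differ in hours of sorafenib as well as in MMS, and the 2 differences cannot be told apart. At 8 h the summed level was 9840 and 10845 CPM in combination cells, against 7719 and 8053 CPM in sorafenib cells. There were 150 rises (53.6%) and 17 falls, with a median log2 fold change of 0.44, against 13.0% and 11.6% of all genes tested. Among other genes of similar level 14.3% rose and 14.7% fell. KRAB members gave 109 rises, and members without KRAB 39 rises and 15 falls. Without the first combination 8 h library there were 11 falls. The first combination 8 h library also had the lower summed level. Whichever library was left out, fewer rises were called than in the full fit, and the median ran from 0.37 to 0.47. At 24 h there were 119 rises (42.5%) and 19 falls, median 0.30, against 18.0% and 18.8% of all genes tested and 22.7% and 19.6% of other genes of similar level. Rises numbered 67 without the second combination 24 h library and 78 without the first sorafenib 24 h library, and falls numbered 7 to 11 with any 1 library left out. With replicates paired there were 154 rises and 32 falls, where 32.3% and 27.8% of other genes of similar level were called.

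The MMS comparisons with and without sorafenib share no library, so that their members can be set side by side. At 8 h 140 members rose in both, which is 90.3% of the 155 and 93.3% of the 150, and 13 fell in both. For rises in other genes of similar level these shares were 70% and 84.8%. At 24 h 95 rose in both, which is 85.6% of the 111 and 79.8% of the 119. The shares in other genes of similar level were near these, at 87.3% and 76.2%. Across the 280 members, which are not independent replicates, the log2 fold changes had Pearson r = 0.94 at 8 h and 0.92 at 24 h, against 0.59 between 8 h and 24 h for MMS alone. Other genes of similar level had r = 0.92 at 8 h and 0.95 at 24 h. In all 4 MMS comparisons 71 members rose, 44 of them KRAB, and 6 fell, none of them KRAB (ZNF217, ZNF362, ZNF395, ZNF608, ZNF618 and ZNF704). At least 1 of the 4 comparisons called 196 members as risen and 32 as fallen, 1 of them (ZNF207) in both directions, and 53 members passed in none. These counts over 4 comparisons were not made for other genes, so nothing particular to the family is read from them.

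**Figure D5:**
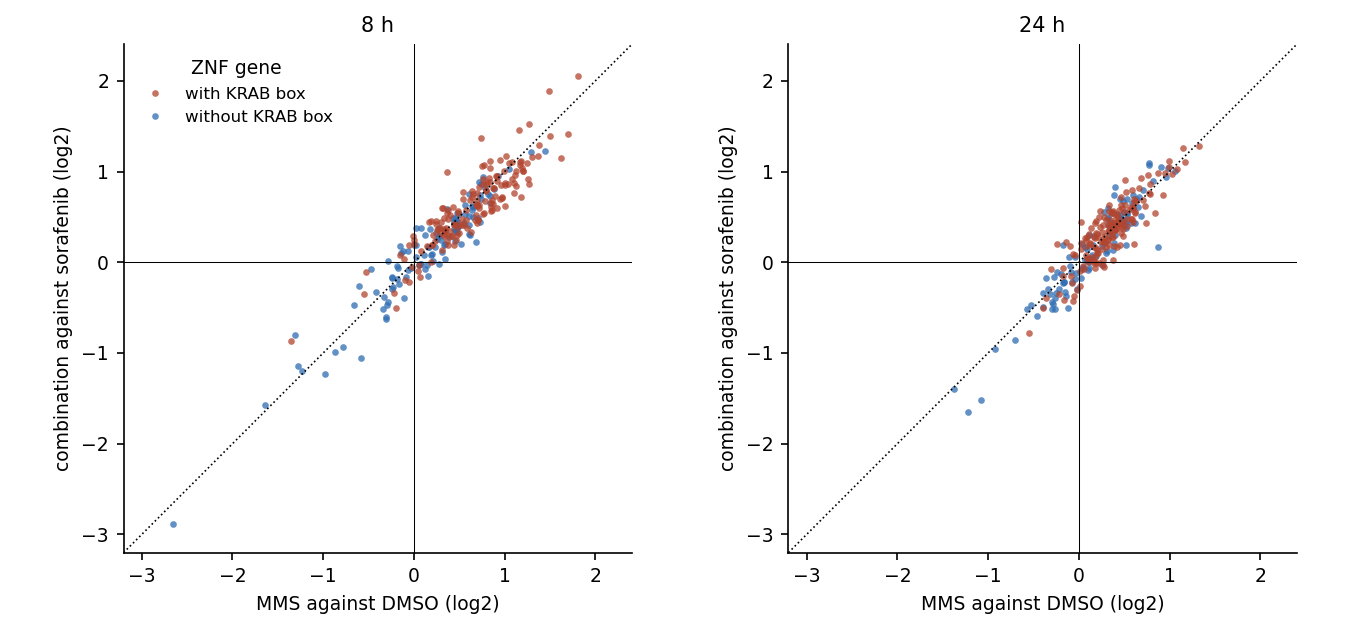
Log2 fold change of combination against sorafenib (vertical axis) and of MMS against DMSO (horizontal axis) at 8 h and 24 h, each point 1 ZNF member. Points lie along the line of equal change, with r of 0.94 at 8 h and 0.92 at 24 h.

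Named genes in these comparisons repeat the pattern. ZNF568 stood at 20.7 and 19.5 CPM in combination cells, against 4.41 and 5.07 CPM in sorafenib cells, at 8 h (2.06 ± 0.18, adjusted p = 1.31e-05). ZNF419 rose by 1.89, ZNF181 by 1.53 and ZNF643 by 1.46 at 8 h. ZNF608 stood at 3.22 and 2.64 CPM in combination cells, against 24.8 and 17.5 CPM in sorafenib cells (-2.88 ± 0.34, adjusted p = 9.98e-05). In both ZNF568 and ZNF608 the groups were far apart. ZNF238 fell by 1.57 and ZNF618 by 1.19, while ZNF488 (-1.23, adjusted p = 0.00941) was lost without the first sorafenib 8 h library or the second combination 8 h library, with adjusted p up to 0.0595. At 24 h ZNF699 rose by 1.29, ZNF583 by 1.26 and ZNF778 by 1.11. ZNF704 stood at 11.6 and 8.30 CPM in combination cells, against 34.5 and 26.4 CPM in sorafenib cells (-1.65, adjusted p = 5.51e-05), and ZNF362 fell by 1.52 and ZNF395 by 0.95. ZNF542 (1.62, adjusted p = 0.0449) was lost without the first sorafenib 24 h or second combination 24 h library, with adjusted p up to 0.267, and with only these groups in the fit (0.0636), and ZNF608 (-1.39, adjusted p = 0.00359) was lost without the first sorafenib 24 h library, with adjusted p = 0.0522.

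Sorafenib alone changed no member past the threshold in edgeR's quasi-likelihood test. For sorafenib against DMSO at 8 h the member median was -0.06, and 7 members had an unadjusted p under 0.05. Of all genes tested 0.115% rose and 0.280% fell. DESeq2 called no member, with 0.572% of all genes higher and 0.857% lower, and the paired fit called 2 lower, with 2.47% of other genes of similar level higher and 3.07% lower. At 24 h the median was -0.01 and 12 members had an unadjusted p under 0.05, with 0.244% and 0.574% of all genes tested called. DESeq2 called 1 member higher, with 0.804% and 1.32% of all genes, and the paired fit called 2 higher and 5 lower, with 3.72% and 4.04% of other genes of similar level. The smallest p at 24 h was that of ZNF704, at 34.5 and 26.4 CPM in sorafenib cells, against 18.9 and 18.5 CPM in DMSO cells (0.70, adjusted p = 0.108, and 0.0023 in the paired fit).

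Sorafenib before MMS was likewise set against MMS alone. At 8 h no member passed in edgeR's test, 36 had an unadjusted p under 0.05 and the median was -0.09, with 0.222% and 0.401% of all genes tested higher and lower. DESeq2 called 2 lower, with 1.19% of all genes higher and 2.51% lower. The paired fit called 3 higher and 20 lower, with 5.07% of other genes of similar level higher and 6.78% lower. The second combination 8 h library lay apart from the first, at 10845 against 9840 CPM summed, and without the second 13 members were lower. At 24 h none passed, 5 had an unadjusted p under 0.05, the median was -0.00, and 0.0143% and 0.108% of all genes tested were higher and lower. DESeq2 called 2 lower, with 0.171% and 0.505% of all genes higher and lower. The paired fit called 1 higher and 2 lower, with 0.931% and 1.47% of other genes of similar level. Whether the effect of adding MMS differed with sorafenib was also tested directly, as combination minus sorafenib against MMS minus DMSO. No member passed at 8 h or at 24 h in edgeR's test, DESeq2 or the paired fit, with 6 and 5 members at an unadjusted p under 0.05. Of all genes 0% passed in edgeR's test at either time, and DESeq2 called 0.00717% lower at 8 h and 0.00717% higher at 24 h. The paired fit called 0.0115% of other genes of similar level higher and 0.0574% lower at 8 h, and 0.0345% higher and 0% lower at 24 h. This does not show that the effects were equal.

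Time in culture was read from the vehicle. For DMSO at 24 h against 8 h no member passed in edgeR's test, 48 had an unadjusted p under 0.05, and 0.366% and 0.294% of all genes tested were higher and lower. The median was -0.13, against -0.00 in other genes of similar level, and by experiment it was -0.02 and -0.17. DESeq2 called 6 lower, with 2.05% of all genes higher and 2.67% lower. The paired fit called 2 higher and 25 lower, with 8.09% of other genes of similar level higher and 7.98% lower. ZNF124 had the smallest p (-0.66, adjusted p = 0.0614).

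Characterised members were read from lists chosen with earlier results of these data known. No list was tested, and each count is to be read against the shares called, which at 8 h were 14.5% higher and 12.0% lower for all genes tested and 55.4% and 6.07% for the family, and at 24 h 15.2% and 16.3% for all genes tested and 39.6% and 4.29% for the family. Of 25 ZNF transcription factor genes, 21 of them members and 23 tested, 9 rose (39.1%) and 5 fell (21.7%) at 8 h with a median log2 fold change of 0.14, a share of rises below that of the family. At 24 h 5 rose (21.7%) and 2 fell (8.70%) with a median of 0.10. The share of rises was nearer to that of all genes tested, and the share of falls nearer to that of the family. Of these calls 4 of 14 at 8 h and 4 of 7 at 24 h were lost when some 1 library was left out. ZNF274, which brings SETDB1 and TRIM28 to the coding ends of ZNF genes, stood at 88.7 and 94.2 CPM in MMS cells, against 49.1 and 53.3 CPM in DMSO cells, at 8 h (0.87 ± 0.09, adjusted p = 3.70e-05), and its log2 fold change at 24 h was 0.17 (adjusted p = 0.196). ZNF24, a repressor of VEGF transcription, was at 248 and 223 CPM in MMS cells and 149.5 and 162 CPM in DMSO cells at 8 h (0.63, adjusted p = 0.000544). In both genes the groups were apart. ZNF263 rose by 1.05 and ZNF410, an activator of the chromatin remodeller gene CHD4, by 0.55 at 8 h. ZNF143, a promoter-binding factor found at chromatin loop anchors, rose by 0.45 at 8 h and 0.33 at 24 h, and the call at 24 h was lost without the first MMS or the second DMSO library (adjusted p up to 0.144) and with only these groups in the fit (adjusted p = 0.111). ZNF217, an oncogene amplified in breast tumours, stood at 63.9 and 74.3 CPM in MMS cells, against 81.2 and 98.0 CPM in DMSO cells, at 8 h (-0.34, adjusted p = 0.0446) and had a log2 fold change of -0.32 at 24 h (adjusted p = 0.0494). The call at 8 h was lost without the first MMS or the second DMSO library (adjusted p up to 0.295), and that at 24 h without any 1 of the 4 libraries (adjusted p up to 0.264). With only the groups compared in the fit neither held, with adjusted p of 0.0891 at 8 h and 0.0824 at 24 h.

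Of 8 genes that act on RNA and translation, 7 of them members, 6 rose (75%) and none fell in this test at 8 h, with a median of 0.46 beside 0.47 in the family, and 4 rose (50%) and 2 fell (25%) at 24 h, with a median of 0.33 beside 0.32. Shares of 8 genes are coarse, and nothing particular to these genes is read from them. ZNF598, the ubiquitin ligase that marks collided ribosomes, stood at 113 and 124 CPM in MMS cells, against 77.0 and 78.5 CPM in DMSO cells, at 8 h (0.65, adjusted p = 0.000236) and rose by 0.35 at 24 h, a call lost without the first DMSO 24 h library (adjusted p = 0.0819) and with only these groups in the fit (adjusted p = 0.0576). ZNF622, a maturation factor of the large ribosomal subunit, stood at 85.1 and 83.0 CPM in MMS cells, against 48.6 and 47.8 CPM in DMSO cells, at 8 h (0.84, adjusted p = 5.61e-05). The groups were apart in both. ZNF326, a splicing and elongation factor, rose by 0.45 at 8 h and 0.71 at 24 h, and ZNF346, a double-stranded RNA-binding protein, by 0.47 and 0.63. The call of ZNF346 at 8 h was lost without either MMS library or the second DMSO library (adjusted p up to 0.256), and that at 24 h without the first MMS or the second DMSO library (adjusted p up to 0.0809).

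Of 7 genes of genome maintenance, 6 of them members, 4 rose (57.1%) and 1 fell (14.3%) at 8 h, with a median of 0.50, and 3 rose (42.9%) and none fell in this test at 24 h, with a median of 0.31. Both shares of rises lie near those of the family (55.4% and 39.6%). The calls of ZNF451 and ZNF827 at 8 h and of ZNF668 at 24 h were lost when some 1 library was left out. ZNF384 is also in the transcription factor list and ZNF830 in that of RNA and translation, so the lists are not separate. ZNF280C, which limits resection of DNA ends, stood at 29.1 and 25.7 CPM in MMS cells, against 15.9 and 16.9 CPM in DMSO cells, at 8 h (0.78, adjusted p = 0.00283) and rose by 0.91 at 24 h. ZNF384, a factor of DNA end joining, rose by 0.50 at 8 h and by 0.33 at 24 h, where the call was lost with only these groups in the fit (adjusted p = 0.0636). ZNF830 rose by 0.63 at 8 h.

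Of 29 genes of the corepressor machinery that works with KRAB proteins, 23 passed no threshold at 8 h. TRIM28 stood at 582 and 577 CPM in MMS cells, against 621 and 544 CPM in DMSO cells, at 8 h (log2 fold change 0.03, adjusted p = 0.863), and SETDB1 had 0.15 (adjusted p = 0.39). The MMS libraries of TRIM28 lay between the DMSO libraries. The 1 that rose at 8 h (3.45%) was MORC2, which silences with the HUSH complex (0.32), and 5 fell (17.2%). The share that fell is near that of other genes of similar level (14.3%), and the list's median was 0.03, so that nothing particular to this machinery is read from the falls. EHMT2 (G9a), a histone H3 lysine 9 methyltransferase, fell by 0.89 on the log2 scale, UHRF1, a partner of DNA methylation maintenance, by 0.71, the histone deacetylase gene HDAC1 by 0.30, EHMT1 by 0.29 and CBX1, encoding HP1 beta, by 0.22. Of these 6 calls all but that of UHRF1 were lost when some 1 library was left out, with adjusted p up to 0.152 for MORC2, 0.0596 for EHMT2, 0.179 for HDAC1, 0.0822 for EHMT1 and 0.214 for CBX1. At 24 h MORC2, SUV39H2 and CHD4 rose, by 0.40, 0.47 and 0.34 (10.3% of the list), and HDAC1 and ATRX fell, by 0.68 and 0.61 (6.90%), where 15.2% and 16.3% of all genes tested were called. The 3 rises at 24 h were lost without some 1 library (adjusted p up to 0.0503 for MORC2, 0.208 for SUV39H2 and 0.231 for CHD4), and the 2 falls were not.

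Zinc finger genes outside the symbol rule were counted as well, beside shares of 17.3% higher and 14.3% lower in other genes of similar level at 8 h and of 14.5% and 12.0% in all genes tested. None of these sets was tested. The profile search found a KRAB box in 9 other genes with a mean count of at least 200. All 9 rose at 8 h, and 4 of 9 rose at 24 h, where 19.8% of other genes of similar level rose. This holds only for genes in which the search found a box. ZKSCAN1, ZKSCAN2 and ZKSCAN3 were not among the 9, and whether the search missed a box in them was not checked. The first 2 rose at 8 h, and ZKSCAN3 did not pass (log2 fold change 0.07, adjusted p = 0.849). ZFP28 stood at 47.6 and 54.4 CPM in MMS cells, against 14.1 and 18.7 CPM in DMSO cells, at 8 h (1.67 ± 0.18, adjusted p = 4.29e-05). Of 26 ZBTB genes 11 rose (42.3%) and 2 fell (7.69%) at 8 h with a median log2 fold change of 0.30. Of 9 ZSCAN and ZKSCAN genes 6 rose (66.7%) and none fell in this test, with ZKSCAN1 at 82.5 and 86.5 CPM in MMS cells and 34.6 and 39.0 CPM in DMSO cells. Of the 248 ZNF genes under a mean count of 200, 189 were tested, and 60 rose (31.7%) and 1 fell (0.529%) at 8 h with a median log2 fold change of 0.39.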

How the data were processed

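Total RNA was made into TruSeq libraries, per the labels' protocols. The deposited values are raw counts per gene that the authors made with CASAVA 1.8.2, TopHat2 2.0.8b on hg19 and HTSeq, per the submitters' processing notes; the HTSeq mode, strand setting and annotation are not given in the sources used here. Counter rows that name no gene were left out of library sizes (reads in no gene 6.88 to 7.94%). The test was edgeR's quasi-likelihood test (version 4.0.16, R 4.3.3) with TMM factors, filterByExpr, a mean for each group over all 16 libraries and Benjamini-Hochberg adjustment over the 13948 genes kept. DESeq2 1.42.0 and other settings were alternatives, and the fit was tested on simulated data. Levels are CPM of summed gene counts without TMM factors. Replicates carrying the same number deviated together (correlation 0.489 to 0.707 over 28 pairs of groups, median 0.638), so a fit with replicates paired by experiment was run beside the unpaired fit. The replicate number follows from how the sample titles begin, an inference, since no label names the experiment. KRAB boxes were found with pyhmmer 0.12.3 in GENCODE 29 coding sequences; positions and promoters are RefSeq GRCh38.p14.

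The members and gene lists were chosen with earlier results of these data known, so the family's direction is not independent evidence. Named genes were, for MMS against DMSO, the 8 rises and 8 falls of greatest size among calls whose groups do not overlap, for combination against sorafenib the 4 largest each way, elsewhere the 4 smallest p each way, and listed genes with a described role. Genes chosen for display outside this rule are the head-to-head pairs, the genes of smallest p where none passed and the related families. A library left out of a fit leaves 1 library in its group, which is then assumed to vary like the others.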

Additional observations from a re-analysis of the deposited data

Results flagged for a closer look

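A test of the difference itself found that the MMS effect was not the same at 24 h and at 8 h for some ZNF genes. It was higher at 24 h for 10 of the 280 members and lower for 29, against 3.53% higher and 5.60% lower among all genes tested. The share of members higher is near that of all genes tested, so nothing particular to the family is read from it. The share lower is not separate from the family's rises at 8 h, since the 8 h effect is subtracted. The differences of effect on the log2 scale, 24 h minus 8 h, were 1.67 for ZNF238, 1.18 for ZNF324B, 1.07 for ZNF702P and 0.81 for ZNF718. The call of ZNF718 did not hold with only these groups in the fit or, as given above, without most single libraries. The differences were -1.34 for ZNF160, -0.78 for ZNF207, -1.22 for ZNF136 and -0.91 for ZNF829.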

How the results depend on the processing

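The medians of MMS against DMSO and of combination against sorafenib kept their sign at both times under every alternative run, and so did that of the difference of effects. No called gene changed sign. Medians near 0 did cross it: that of combination against MMS at 24 h, those of the interaction at both times and that of sorafenib against DMSO at 24 h. Paired by experiment (replicate block), MMS against DMSO at 24 h had 22 members lower, combination against sorafenib at 24 h 32 lower, sorafenib against DMSO 2 lower at 8 h and 2 higher and 5 lower at 24 h, combination against MMS 3 higher and 20 lower at 8 h and 1 higher and 2 lower at 24 h, DMSO at 24 h against 8 h 2 higher and 25 lower, and the MMS effect at 24 h minus 8 h 28 higher and 74 lower. With each comparison's groups alone, MMS at 24 h gave 56 higher and 7 lower, combination against sorafenib 11 lower at 8 h and 12 lower at 24 h, and the difference of effects 3 higher and 17 lower. Without scaling factors, combination against sorafenib at 24 h had 12 lower. With members from a mean count of 400, fewer genes were counted: MMS gave 98 higher and 9 lower at 8 h and 68 higher at 24 h, combination against sorafenib 92 and 8 at 8 h and 72 and 12 at 24 h, the difference of effects 5 and 17, and the median of combination against MMS at 24 h was 0.0023. That median was -0.0109 with RLE factors and -0.0112 with DESeq2. DESeq2 called 1 member higher for sorafenib at 24 h, 2 lower for combination against MMS at each time and 6 lower for DMSO over time, and 3 were lower there with a filter at a mean count of 50.

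With 1 library left out, counts for MMS at 24 h ran from 65 to 83 higher and from 5 to 10 lower, for combination against sorafenib from 11 to 18 lower at 8 h and from 67 to 98 higher and 7 to 11 lower at 24 h, for combination against MMS at 8 h from 0 to 13 lower, and for the difference of effects from 3 to 7 higher and 12 to 25 lower. Medians ran from -0.11 to -0.0040 for sorafenib at 8 h, from 0.37 to 0.47 and 0.30 to 0.35 for combination against sorafenib at 8 h and 24 h, from -0.054 to 0.017 for combination against MMS at 24 h, from -0.106 to 0.031 and from -0.046 to 0.019 for the interaction at 8 h and 24 h, and from -0.032 to 0.0028 for sorafenib at 24 h. Without scaling factors the interaction at 8 h was 0.0198. Among single genes named, the pairing brought 23 further results past the threshold and lost none. The threshold was lost by 23 results with the groups compared alone, 5 with no filter, 2 without scaling factors and 1 with DESeq2, and gained by 7 without scaling factors, 4 with DESeq2, 3 with a filter at a mean count of 50 and 1 with no filter. With 1 library left out, 84 results lost it, 2 gained it and 714 kept it or stayed without it. With 2 libraries a group, p-values measure only the spread between these experiments. As to depth, 48.3% of members rose with MMS at 8 h at a mean count of 200 to 400 and 50% from 1600 up.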
